A study of Mus musculus with 24 samples.

Results

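The transcripts followed here were 9 genes of urate and anion handling, chosen by symbol: the transporters Slc17a1, Slc17a2, Slc17a3, Slc17a4, Slc17a5, Slc2a9 and Abcg2, and the enzymes Xdh and Uox. They were 9 of the 55335 genes counted in whole kidney RNA, and all 9 were among the 16092 genes that reached 1 CPM (reads on the gene relative to all reads on genes, scaled between kidneys) in at least 1 kidney and were tested. Uox reached this level in male kidneys only. The kidneys came from 24 mice on the C57BL/6J background, 6 in each of 4 groups. Mice of the cKOm (male) and cKOf (female) groups were Pex5lox/lox/Pax8-rtTA/LC1, in which doxycycline (DOX) switches on Cre in the renal tubule and deletes Pex5. Mice of the Ctrlm (male) and Ctrlf (female) groups were Pex5lox/lox littermates without the inducible transgenes. All 24 mice were given DOX, for 2 weeks from 8 weeks of age, and were studied 4 weeks later. The labels give ZT9 as the hour of tissue collection and ZT3 as that of the experiments. The Pax8-rtTA driver acts in tubule cells, whereas the RNA came from every cell of the kidney, so that fewer cells of a type and less RNA per cell cannot be told apart.

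Urate is the end of purine breakdown. Xdh, xanthine dehydrogenase, makes it from hypoxanthine and xanthine, and in mice Uox, urate oxidase, a peroxisomal enzyme of hepatocytes, then degrades it. In the proximal tubule urate is both taken back and secreted. Slc2a9 is a urate carrier of the reabsorptive route, Abcg2 is an ATP-driven pump that exports urate, and Slc17a1 and Slc17a3 are voltage-driven organic anion carriers that pass urate into the lumen. Slc17a2 and Slc17a4 are close relatives of the latter. Slc17a5, sialin, carries sialic acid out of lysosomes. Pex5 is the receptor that brings most matrix enzymes into peroxisomes.

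Between 19376152 and 28470831 reads per kidney fell on genes. A count of 3, used here as the floor of detection, was 0.105 to 0.155 CPM, a limit that covers counting error only. Pex5, whose reads were counted over all exons, had 54.3 ± 4.63 CPM in Ctrlm and 43.7 ± 1.94 CPM in cKOm kidneys, and 50.3 ± 6.97 CPM in Ctrlf and 43.6 ± 3.55 CPM in cKOf kidneys (mean ± SD, n = 6). The fitted log2 difference of Pex5 was -0.31 in males (edgeR adjusted p = 0.0219), and in females it was -0.21 (edgeR adjusted p = 0.177). The paper found almost no PEX5 protein in cKOm kidneys and a reduced amount in cKOf kidneys. It proposes incomplete deletion in females, while electron microscopy showed nearly no peroxisomes in proximal tubules of either sex. Sex and the extent of deletion therefore cannot be told apart where the change by genotype differs between the sexes. The 10 markers of the proximal tubule summed to between 10807 and 15639 CPM in all kidneys. Certain libraries stood apart. In 5 male kidneys, Ctrlm 1 to 4 and cKOm 4, the hepatocyte gene Alb had 224 to 662 CPM, against 15.1 to 60.2 CPM in the other 19. In Ctrlf 1, interferon-induced transcripts were higher than in any other kidney. Results without the kidneys high in Alb are also given for members called by genotype or by sex in controls. They are also given for the urate and purine lists in males, and Xdh is given without Ctrlf 1. Leaving out the kidneys high in Alb keeps 2 Ctrlm and 5 cKOm kidneys. A call lost there may come from fewer kidneys, which was not tested. Counts of tubule markers, androgen-responsive genes and PPAR targets, and the sex differences of other genes, are given with all kidneys only.

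The genes Slc17a2, Slc17a3, Slc17a1 and Slc17a4 lie in this order on chromosome 13 of GRCm38, within 108017 bp. Slc17a2 runs from 23806993 to 23825180, Slc17a3 from 23839434 to 23860716 and Slc17a1 from 23867750 to 23895730, all on the plus strand. Slc17a4 runs from 23895890 to 23915009 on the minus strand, and 159 bp part its end from that of Slc17a1. No exon of the 9 genes overlaps an exon of another gene on the same strand, and no stretch of 50 bases in the transcripts of these 4 is found in those of any other gene. The other members lie apart: Slc17a5 on chromosome 9 (78536488 to 78588041, minus strand), Slc2a9 on chromosome 5 (38349273 to 38503143, minus strand), Abcg2 on chromosome 6 (58584523 to 58695676, plus strand), Xdh on chromosome 17 (73883895 to 73950196, minus strand) and Uox on chromosome 3 (146570426 to 146632305, plus strand).

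The 250 bases before the RefSeq start sites (GRCm38.p6) are shown for the 3 plus-strand neighbours, because these neighbours differed by sex in opposite directions. RefSeq gave 10 such windows for 7 of the 9 genes, and Slc17a4 and Xdh were not matched. Capitals mark TTCNNNGAA, the core that STAT5 binds, which reads the same on both strands. The windows are chr13:23806743-23806992 for Slc17a2, chr13:23839184-23839433 for Slc17a3 and chr13:23870023-23870272 for the second of the 2 Slc17a1 starts, all on the plus strand and 5′ to 3′.
Slc17a2: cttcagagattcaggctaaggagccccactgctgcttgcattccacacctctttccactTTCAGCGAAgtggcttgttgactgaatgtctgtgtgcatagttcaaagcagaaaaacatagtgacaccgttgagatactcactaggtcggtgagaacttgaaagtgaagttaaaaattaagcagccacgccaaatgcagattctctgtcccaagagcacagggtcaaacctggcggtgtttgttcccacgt
Slc17a3: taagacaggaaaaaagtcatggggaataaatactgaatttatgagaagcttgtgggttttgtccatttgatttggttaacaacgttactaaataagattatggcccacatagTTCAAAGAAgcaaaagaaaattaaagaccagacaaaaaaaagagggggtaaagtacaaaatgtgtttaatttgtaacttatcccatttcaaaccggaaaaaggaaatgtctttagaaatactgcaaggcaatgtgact
Slc17a1: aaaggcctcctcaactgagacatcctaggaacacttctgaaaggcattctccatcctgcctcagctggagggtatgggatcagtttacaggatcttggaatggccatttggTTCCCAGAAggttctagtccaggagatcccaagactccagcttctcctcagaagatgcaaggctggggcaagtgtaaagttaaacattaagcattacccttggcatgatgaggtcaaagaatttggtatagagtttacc
The match began 191 bases before the start in Slc17a2, 138 in Slc17a3 and 139 in Slc17a1. These letters were present in 3 of the 10 windows and in 7.02% of all 32851 promoter windows. The Slc17a1 match also holds TTCCNNGAA, the stricter BCL6 form that overlaps it, found in 4.06% of all windows. Altogether 9 motifs were searched on both strands. Of the others, one arm of the androgen receptor site, AGAACA, was found 206 bases before a Slc17a1 start and in 16.1% of all windows. The HNF4 site CAAAGTCCA, the HNF1 palindrome, its arm GTTAAT, the direct repeat that PPAR binds, the full androgen receptor site and the interferon response element were in none of the 10 windows. Of the 9 motifs 5 (the STAT5 and BCL6 forms, both single arms and the interferon element) were chosen after the values had been seen, and a match is a description of the letters only.

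The question of each comparison was how transcript levels differed between cKO and control mice of 1 sex, and whether this differed between the sexes. In males, Slc17a1 and Slc17a3 were lower in cKOm than in Ctrlm kidneys. In females no member passed the threshold. Of the 9 members, 2 were called in males, both lower (edgeR adjusted p under 0.05), where 9.05% of all tested genes were called and 4.90% were lower. The same 2 were the members whose male groups did not overlap, as was so for 7.38% of all tested genes. In females 0 of 9 were called by edgeR, where 0.851% of all tested genes were called, and 1 member, Xdh, had an unadjusted p under 0.05, as had 6.73% of all tested genes. DESeq2 called Xdh alone in females. The median log2 fold change of the members was -0.34 in males against 0.01 over all tested genes, and -0.12 against 0.00 in females.

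**Figure D1:**
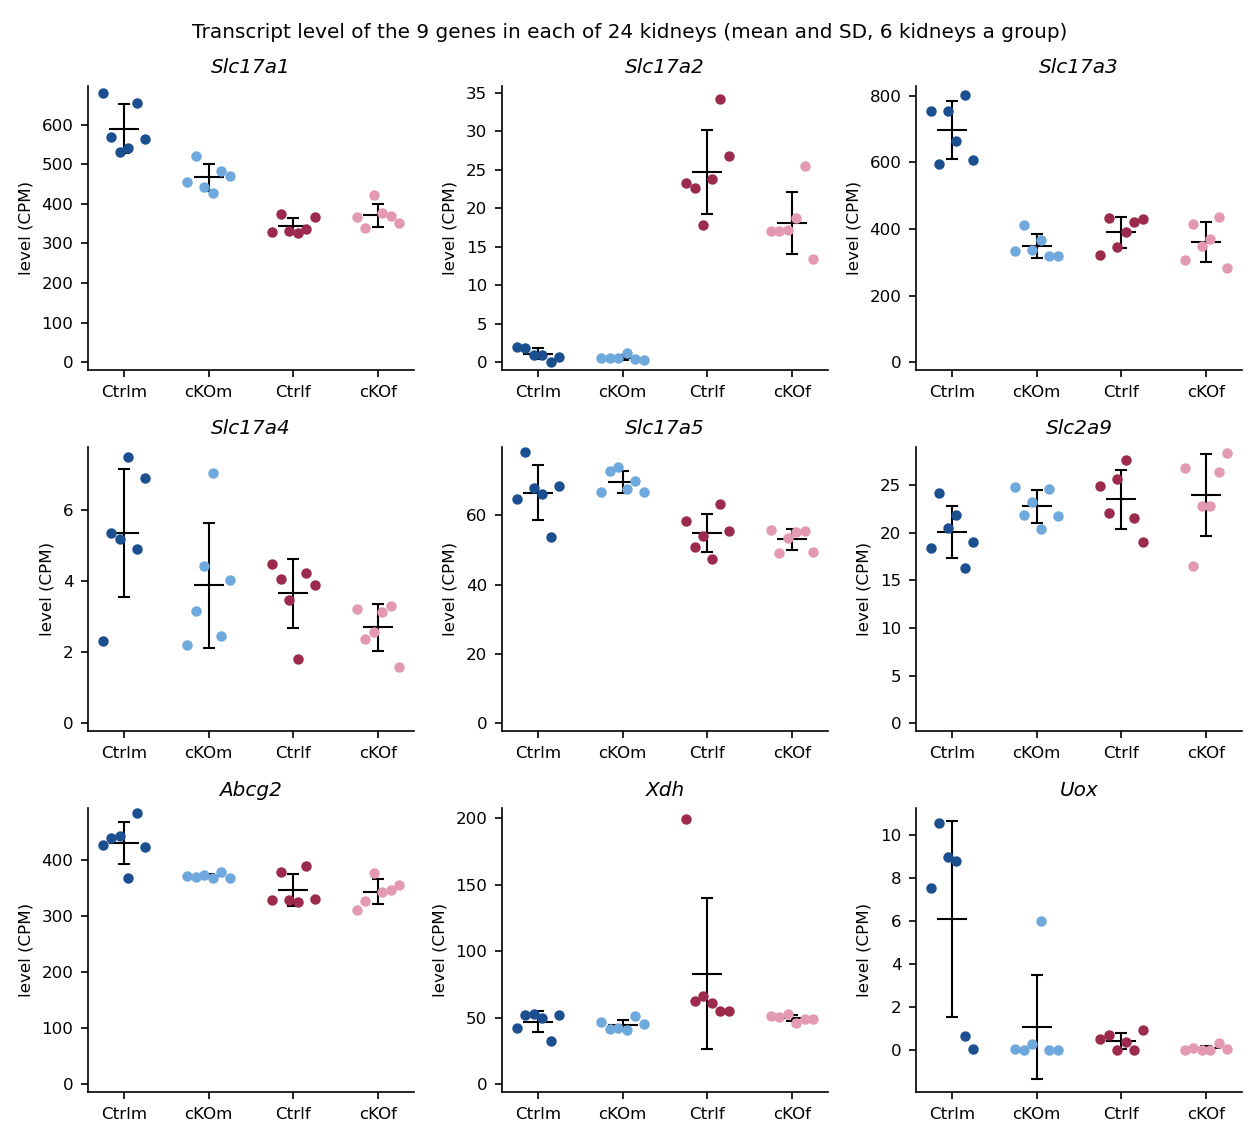
Level in CPM of each of the 9 genes (vertical axis, linear) in the 24 kidneys, by group. Each point is a kidney, the horizontal mark is the mean and the bar the SD of 6 kidneys. Slc17a3 lies between 595 and 803 CPM in Ctrlm kidneys and at most at 437 CPM in the other groups, Slc17a2 is at most at 1.98 CPM in male kidneys, and single kidneys stand apart for Xdh (Ctrlf 1) and Uox (cKOm 4).

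Slc17a3, a luminal anion carrier of the proximal tubule, showed the largest change by genotype among the members that passed the test. Ctrlm kidneys had 595, 710.2 and 803 CPM (lowest, median and highest of 6), cKOm kidneys 319.8, 336 and 413 CPM, Ctrlf kidneys 322, 405 and 434 CPM and cKOf kidneys 284, 359 and 437 CPM. Every Ctrlm kidney was above every kidney of the other groups, and the latter overlapped each other. The log2 fold change in males was -0.999 (SE 0.11, edgeR adjusted p = 3.51e-07). In females the log2 fold change was -0.12 (SE 0.11, edgeR adjusted p = 0.675). The male change exceeded the female change by -0.88 on the log2 scale (SE 0.15, edgeR test of the interaction, adjusted p = 7.72e-04). Without the 5 kidneys high in Alb, with 2 Ctrlm and 5 cKOm kidneys left, the male log2 fold change was -1.07 (edgeR adjusted p = 3.24e-04).

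Slc17a1, the neighbour with the same kind of transport, was also lower in cKOm kidneys, to a smaller extent. Its levels were 532, 567 and 679.9 CPM in Ctrlm kidneys and 427, 463 and 522 CPM in cKOm kidneys (lowest, median and highest of 6), so that the male groups did not overlap. Ctrlf kidneys had 327, 334 and 375 CPM and cKOf kidneys 340.04, 368 and 423 CPM, which overlapped. The male log2 fold change was -0.34 (SE 0.07, edgeR adjusted p = 0.00446), and the female one 0.11 (SE 0.07, edgeR adjusted p = 0.530). The male change differed from the female change by -0.45 (SE 0.10, edgeR test of the interaction, adjusted p = 0.0165). Without the kidneys high in Alb the male value was -0.40 (edgeR adjusted p = 0.0390). Slc17a1 and Slc17a3 were the 2 members called for the interaction, where 2.31% of all tested genes were called and 1.49% were more negative in males. Among genes around this stretch, the iron regulator Hfe gave 18.7 CPM in Ctrlm and 19.1 CPM in cKOm kidneys and Scgn had no count in any kidney. Carmil1, which binds actin capping protein, was higher in cKOm than in Ctrlm kidneys, with means of 39.7 and 31.1 CPM and a log2 fold change of 0.35 (edgeR adjusted p = 0.00740).

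Several markers of the proximal tubule were also lower in cKOm kidneys, more so for its last segment than for the earlier ones. Of 10 proximal tubule markers, 6 were lower and 0 higher in cKOm kidneys, where 4.90% of all tested genes were lower and 4.14% higher, and their summed level was 13317 to 15639 CPM in Ctrlm and 10807 to 11973 CPM in cKOm kidneys. Of 5 markers of the last proximal segment (S3), 4 were lower, and their sum was 2640 to 4444 CPM in Ctrlm, 753 to 1216 CPM in cKOm, 789 to 1189 CPM in Ctrlf and 806 to 1216 CPM in cKOf kidneys. Of 4 markers of the earlier segments (S1 and S2), 1 was lower, with a sum of 1424 to 1718 CPM in Ctrlm and 1396 to 1529 CPM in cKOm kidneys. No proximal tubule marker was called in females. All 6 androgen-responsive kidney genes listed were lower in cKOm kidneys, with a median log2 fold change of -2.01, and 8 of 10 listed PPAR targets were higher, with a median of 1.42. Cyp7b1 is both an S3 marker and among the 6 androgen-responsive genes, so those counts are not independent. In females 1 of the 6 androgen-responsive genes was lower, with a median of -0.10, and 4 of the 10 PPAR targets were higher, with a median of 1.07, where 0.851% of all tested genes were called. The part of these in the Slc17a1 and Slc17a3 values was not tested.

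**Figure D2:**
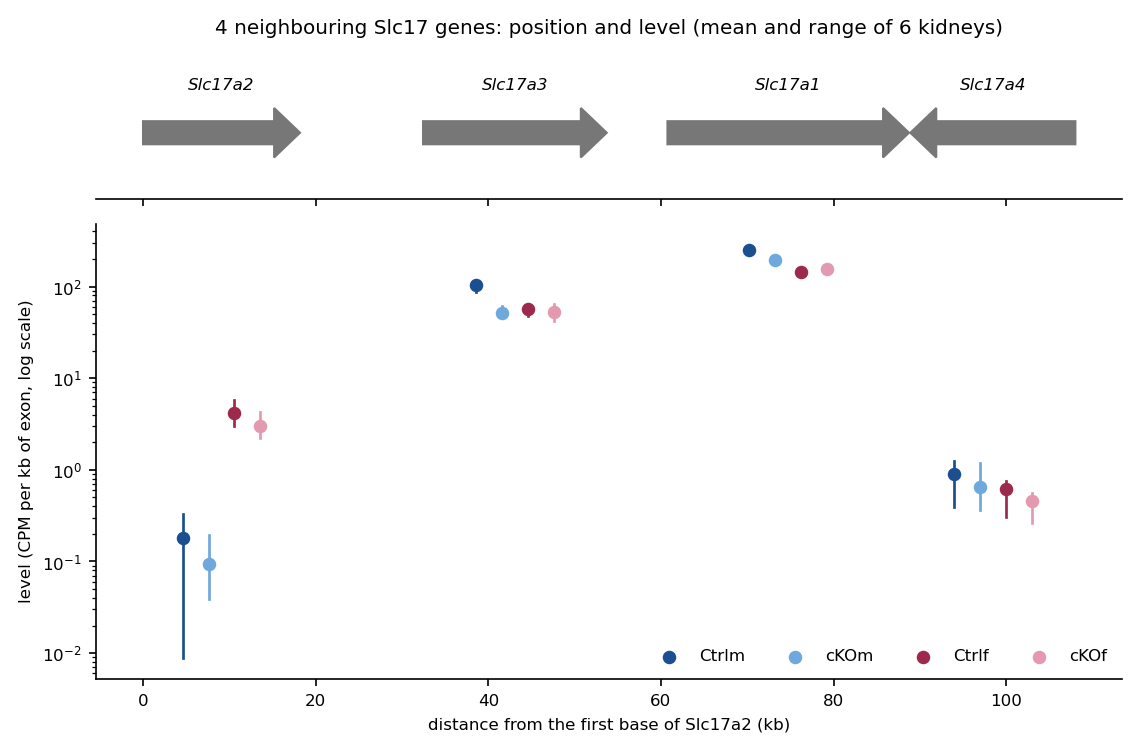
The 4 neighbouring Slc17 genes drawn to scale by distance from the first base of Slc17a2 (horizontal axis, kb; arrows point along the strand), over their level in CPM per kb of merged exons (vertical axis, log scale; points are means and lines the range of 6 kidneys). Slc17a1 and Slc17a3 lie at or above 41.9 CPM per kb in all kidneys, Slc17a4 at or below 1.25 in all kidneys, and Slc17a2 averages 0.179 in Ctrlm and 4.15 in Ctrlf kidneys.

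Slc17a2, the first gene of the stretch, had the reverse pattern by sex. Ctrlm kidneys had 0.0522, 0.932 and 1.98 CPM and cKOm kidneys 0.234, 0.514 and 1.17 CPM (lowest, median and highest of 6), the lowest of them from 1 read. Ctrlf kidneys had 17.8, 23.5 and 34.1 CPM and cKOf kidneys 13.4, 17.1 and 25.5 CPM. All 12 female kidneys were above all 12 male kidneys, and the genotypes overlapped within each sex. Among controls the level was 22.5 times higher in females, a male over female log2 fold change of -4.49 (SE 0.33, edgeR adjusted p = 5.75e-11), and among cKO mice it was 32.8 times higher in females, at -5.04 (SE 0.35, edgeR adjusted p = 2.85e-11). By genotype the log2 fold change was -0.99 in males (SE 0.40, edgeR adjusted p = 0.193) and -0.45 in females (SE 0.26, edgeR adjusted p = 0.434). Within males the values moved with Alb. Ctrlm kidneys high in Alb had 0.889 to 1.98 CPM against 0.0522 and 0.713 CPM in the other 2, and cKOm 4 had 1.17 CPM against 0.234 to 0.549 CPM in the other 5. Without those kidneys the male log2 fold change was 0.082 (edgeR adjusted p = 0.974). The value for control males over control females was then -5.93 (edgeR adjusted p = 6.59e-09).

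Slc17a4, named for its place in the family and best known from the intestine, was near the lower end of what was tested. Kidneys had 1.58 to 7.49 CPM, and males averaged 5.36 ± 1.81 (Ctrlm) and 3.88 ± 1.77 CPM (cKOm), while females averaged 3.66 ± 0.965 (Ctrlf) and 2.70 ± 0.666 CPM (cKOf; SD, n = 6). The log2 fold change was -0.47 in males (SE 0.27, edgeR adjusted p = 0.436) and -0.44 in females (SE 0.28, edgeR adjusted p = 0.491), and the groups overlapped. Slc17a5, the lysosomal sialic acid carrier, had 53.8 to 78.2 CPM in Ctrlm, 66.6 to 73.8 CPM in cKOm, 47.4 to 63.2 CPM in Ctrlf and 49.2 to 55.7 CPM in cKOf kidneys. Its log2 fold change by genotype was 0.06 in males (SE 0.08, edgeR adjusted p = 0.777) and -0.05 in females (SE 0.08, edgeR adjusted p = 0.838). All cKOm kidneys were above all cKOf kidneys, and males were higher by 0.39 (SE 0.08, edgeR adjusted p = 8.39e-04).

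The same kidneys were compared by sex. Among controls 7 of 9 members were called, 5 higher and 2 lower in males, where 15.7% of all tested genes were called, 8.17% higher and 7.48% lower. The members lower in males were Slc17a2 and Xdh. Of the 7, Slc17a1, Slc17a2, Slc17a3 and Abcg2 were also called without the kidneys high in Alb, a fit with 2 Ctrlm kidneys. Slc17a5 (0.18, edgeR adjusted p = 0.379), Xdh (-0.95, edgeR adjusted p = 0.117) and Uox were not. Uox passed the filter only through the 5 male kidneys high in Alb, so its call here (3.89) is no result. It was not called by limma-voom (adjusted p = 0.141) or DESeq2 (adjusted p = 0.0881). Slc17a5 was also not called when only the 2 groups were fitted (edgeR adjusted p = 0.0628) or with a liver covariate, the mean log2 CPM of hepatocyte markers (edgeR adjusted p = 0.131). Slc17a1 was higher in Ctrlm than in Ctrlf kidneys by 0.78 on the log2 scale (SE 0.07, edgeR adjusted p = 1.08e-08) and Slc17a3 by 0.84 (SE 0.11, edgeR adjusted p = 1.60e-06). In cKO mice 3 of 9 members were called by sex, where 9.72% of all tested genes were called. There the male over female value was 0.33 for Slc17a1 (SE 0.07, edgeR adjusted p = 0.00247) and -0.05 for Slc17a3 (SE 0.11, edgeR adjusted p = 0.840). For Slc17a1 and Slc17a3 the test of the interaction given above is also the test of whether these sex differences changed between the genotypes. The comparisons by sex and by genotype share kidneys.

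**Figure D3:**
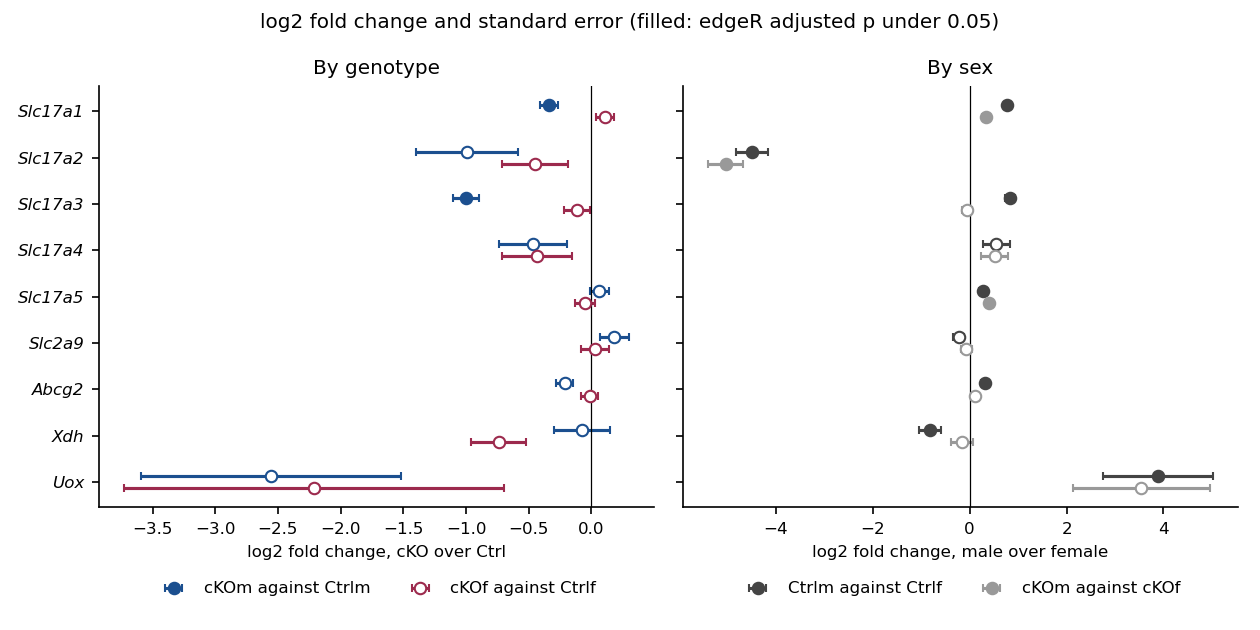
log2 fold change with its standard error (horizontal axis) for the 9 genes, by genotype in each sex on the left and by sex in each genotype on the right, with filled points for an edgeR adjusted p under 0.05. On the left Slc17a1 and Slc17a3 are filled, in males, and on the right Slc17a2 lies at -4.49 and -5.04.

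Abcg2, the ATP-driven urate exporter, had 368, 434 and 485 CPM in Ctrlm kidneys (lowest, median and highest of 6) and 368, 372 and 379 CPM in cKOm kidneys. Ctrlf kidneys had 326, 330.1 and 390.1 CPM and cKOf kidneys 312, 346 and 377 CPM. Of the Ctrlm kidneys 5 were above all cKOm kidneys and 1, Ctrlm 4, was below them. The male log2 fold change was -0.21 (SE 0.07, edgeR adjusted p = 0.0731) and the female one -0.01 (SE 0.07, edgeR adjusted p = 0.961). The male value lay near the threshold. It passed with DESeq2 (-0.24, adjusted p = 0.0190), when a gene had to reach 1 CPM in at least 6 kidneys (-0.24, edgeR adjusted p = 0.0465), when p was adjusted within males (edgeR adjusted p = 0.0407) and without Ctrlm 4 (-0.25, edgeR adjusted p = 0.0231), and over all alternatives the adjusted p ran from 0.0190 to 0.171. Males were higher among controls by 0.31 (SE 0.07, edgeR adjusted p = 0.00209), and among cKO mice by 0.11 (SE 0.07, edgeR adjusted p = 0.327). The interaction was -0.20 and was not called by edgeR, so a change of this sex difference with genotype was not shown.

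Slc2a9, the urate carrier of reabsorption, did not pass any test. Ctrlm kidneys had 20.05 ± 2.76, cKOm 22.8 ± 1.76, Ctrlf 23.5 ± 3.13 and cKOf 23.9 ± 4.29 CPM (mean ± SD, n = 6), and the ranges of all groups overlapped between 20.3 and 24.2 CPM. The log2 fold change was 0.18 in males (SE 0.12, edgeR adjusted p = 0.492) and 0.03 in females (SE 0.12, edgeR adjusted p = 0.949).

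Xdh, the enzyme that forms urate, had 32.6, 51.1 and 52.7 CPM in Ctrlm and 41.0, 43.9 and 51.1 CPM in cKOm kidneys (lowest, median and highest of 6). Ctrlf kidneys had 54.8, 61.9 and 199 CPM and cKOf kidneys 45.9, 49.9 and 52.9 CPM. The female groups did not overlap, as for 0.559% of all tested genes. A single kidney, Ctrlf 1, held the highest value, 3.32 times the mean of the other 5 Ctrlf kidneys (60.0 ± 4.86 CPM, SD). Those 5, at 54.8 to 66.1 CPM, were also above every cKOf kidney. The log2 fold change was -0.07 in males (SE 0.22, edgeR adjusted p = 0.926) and -0.74 in females (SE 0.22, edgeR adjusted p = 0.0504). Without Ctrlf 1 the female value was -0.27 (edgeR adjusted p = 0.134). The male over female difference among controls was -0.82 (SE 0.22, edgeR adjusted p = 0.0130), and -0.35 without Ctrlf 1 (edgeR adjusted p = 0.0183). The female call depended on the setting: the adjusted p was 0.0490 with RLE normalization, 0.0424 with DESeq2 and 0.0291 with every counted gene tested by edgeR, and it ran from 0.0246 to 0.289 over all alternatives.

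Interferon-induced transcripts moved with Xdh in that kidney. Over the 24 kidneys the genes most like Xdh in log2 CPM were Samhd1 (r = 0.92), Ifit1 (r = 0.89) and Gbp7 (r = 0.89), all of them induced by interferons, and over the 23 kidneys without Ctrlf 1 these r values were 0.67, 0.54 and 0.47. Ifit1 had 43.8 CPM in Ctrlf 1 and 7.64 to 9.79 CPM in the other 5 Ctrlf kidneys. The GTPase Gbp2, named after its values had been seen, had 239.9 CPM in Ctrlf 1 and 10.1 to 35.6 CPM in the other 23 kidneys. The part of these transcripts in the Xdh values was not tested.

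**Figure D4:**
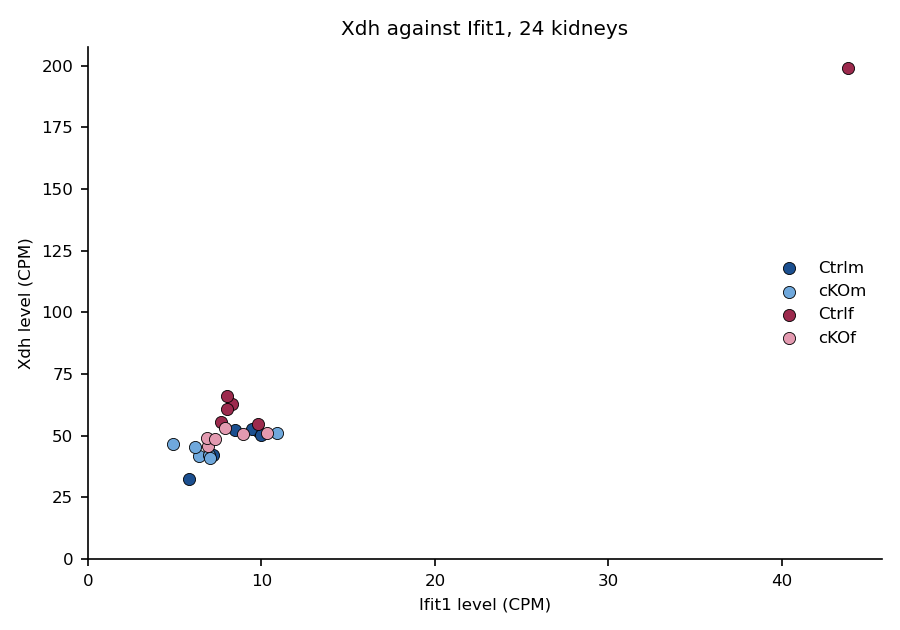
Xdh level (vertical axis, CPM) against Ifit1 level (horizontal axis, CPM) in the 24 kidneys, with a point for each kidney coloured by group. Ctrlf 1 lies alone at 199 CPM of Xdh and 43.8 CPM of Ifit1, and the other 23 kidneys lie between 32.6 and 66.1 CPM of Xdh.

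Uox, which degrades urate in liver peroxisomes, was detected mainly in the kidneys high in Alb. These 5 kidneys had 123 to 321 Uox reads, 6.01 to 10.6 CPM. The other 19 had 0 to 21 reads, 8 of them had 0, and 12 had 3 reads or fewer, at or under the floor. By group, Ctrlm 1 to 4 had 7.53, 10.6, 8.99 and 8.82 CPM and Ctrlm 5 and 6 had 0.626 and 0.0476 CPM. In cKOm mice, kidney 4 had 6.01 CPM and the others 0 to 0.251 CPM. Ctrlf kidneys had 0 to 0.910 CPM and cKOf kidneys 0 to 0.319 CPM. In the kidneys high in Alb there were 13.6 to 39.3 Uox reads for 1000 Alb reads. The lowest of these was Ctrlm 3 (95% exact binomial interval 11.7 to 15.7) and the highest Ctrlm 4 (33.6 to 45.8), intervals that cover counting error only. In cKOm 4 there were 25.6 (21.2 to 30.6). The ratio to Alb was thus not the same in these kidneys. Reads of Uox and of another hepatocyte gene, Cps1, were 152 and 270 in Ctrlm 1, 321 and 384 in Ctrlm 2 and 182 and 413 in Ctrlm 3. They were 172 and 325 in Ctrlm 4 and 123 and 231 in cKOm 4.

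Summed, the 15 hepatocyte markers found in the files were high in the same kidneys as Uox. Singly, 4 were lower and 1 higher in cKOm than in Ctrlm kidneys by edgeR, where 4.90% of all tested genes were lower and 4.14% higher. The median log2 fold change of the 15 was -1.88 in males. By sex in controls 13 were higher in males, where 8.17% of all tested genes were. The sum of the markers was 558 to 1060 CPM in the 5 kidneys high in Alb and 66.9 to 226 CPM in the other 19, and none of the 15 was at 0 in every kidney of a group. Cps1, the urea cycle enzyme, had 11.3 to 20.4 CPM in the former and 0 to 1.55 CPM in the latter. Ctrlf 6 had 21 Uox reads with 27.9 CPM of Alb, or 32.6 Uox reads for 1000 Alb reads (95% exact binomial interval 20.05 to 50.3). The 3 genes most like Uox over the 24 kidneys were Mug1 (r = 0.94), Sult2a8 (r = 0.94) and Pon1 (r = 0.93). The fitted log2 fold change of Uox was -2.55 in males (SE 1.04, edgeR adjusted p = 0.192) and -2.21 in females (SE 1.51, edgeR adjusted p = 0.531). Without cKOm 4 the male value was -6.66 (edgeR adjusted p = 5.85e-04), but every kidney high in Alb left in that fit was Ctrlm. Uox passed the filter only through kidneys high in Alb, so this call is no result. Between the kidneys low in Alb no fold is read from counts mostly at or under the floor, and their median was 0.337 CPM in 2 Ctrlm kidneys and 0 in 5 cKOm kidneys. With the liver covariate in the fit, Uox was at -0.74 in males (edgeR adjusted p = 0.681) and at -2.52 in females (edgeR adjusted p = 0.0376). All female kidneys were low in Alb, so the female call rests on such low counts and is no result. The part of carried-over liver RNA in Uox was not tested beyond these values.

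**Figure D5:**
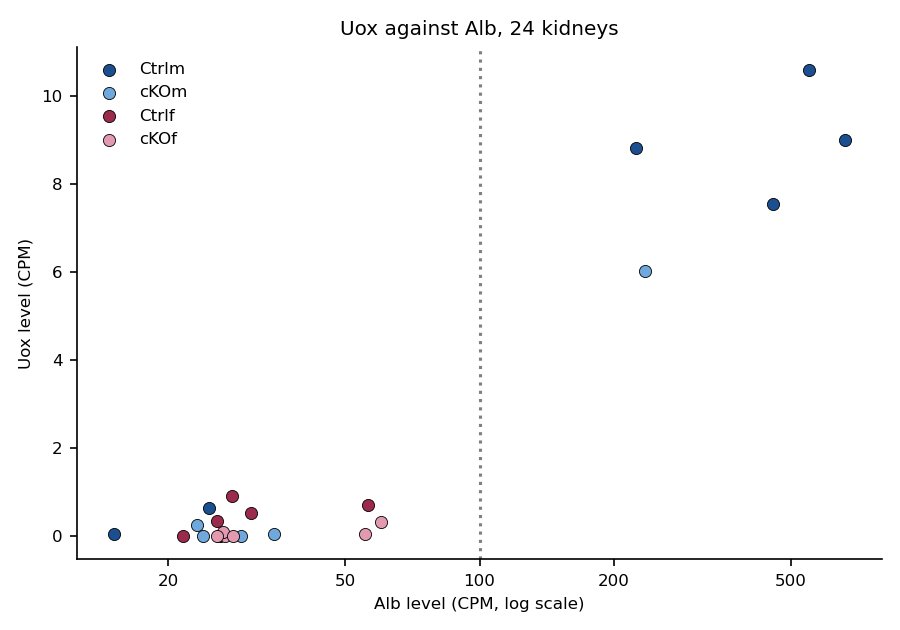
Uox level (vertical axis, CPM) against Alb level (horizontal axis, CPM, log scale) in the 24 kidneys, with a point for each kidney coloured by group and a dotted line at 100 CPM of Alb. The 5 kidneys right of the line, Ctrlm 1 to 4 and cKOm 4, have 6.01 to 10.6 CPM of Uox, and all others have at most 0.910 CPM.

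Levels of different genes were compared per kb of merged exons. In Ctrlm kidneys Slc17a1 stood highest at 249 ± 25.99 CPM per kb (SD, n = 6), followed by Slc17a3 at 103 ± 12.7, Abcg2 at 52.9, Slc17a5 at 18.4, Xdh at 5.13, Slc2a9 at 3.94, Uox at 1.22, Slc17a4 at 0.897 and Slc17a2 at 0.179. The ranges of neighbours in this order overlapped for Xdh and Slc2a9 and for Uox and Slc17a4. In Ctrlf kidneys the order was Slc17a1 (145), Slc17a3 (57.6), Abcg2 (42.6), Slc17a5 (15.1), Xdh (9.07), Slc2a9 (4.62), Slc17a2 (4.15), Slc17a4 (0.612) and Uox (0.0827 CPM per kb). There Slc17a3 and Abcg2 overlapped, as did Slc17a5 and Xdh, and Slc2a9 and Slc17a2. In cKOm kidneys Slc17a3 was at 51.5 and Abcg2 at 45.7 CPM per kb, with ranges still apart. Per kb of the longest coding transcript, a length chosen after seeing the data, Slc17a3 was at 161 CPM per kb in Ctrlm kidneys, and Uox and Slc17a4 changed places. In Ctrlf kidneys Xdh, at 18.1, then stood above Slc17a5, at 16.96 CPM per kb.

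Over the 24 kidneys, which share their groups, Slc17a1 was most like Galnt1 (r = 0.96), Acsm2 (r = 0.95) and Aldh3a2 (r = 0.95) in log2 CPM, and Slc17a3 was most like Akr1c14 (r = 0.93), Frzb (r = 0.92) and Mep1a (r = 0.92). Slc17a2 was most like Ceacam2 (r = 0.96), Xist (r = 0.95), the RNA of the inactive X chromosome, and Rdh16f2 (r = 0.95). For Abcg2 the nearest genes were Crot (r = 0.89), a peroxisomal carnitine acyltransferase, Ldha (r = 0.88) and Gas2 (r = 0.88). Those of Slc17a5 were Impact (r = 0.91), Lama1 (r = 0.89) and 4833420G17Rik (r = 0.89), those of Slc2a9 were Ddb2 (r = 0.78), Shd (r = 0.73) and Ulk3 (r = 0.72), and those of Slc17a4 were Rbms1 (r = 0.76), Samd8 (r = 0.75) and Zfp280b (r = 0.75). Once the group means had been taken off, r was 0.56 for Slc17a1 with Galnt1, 0.34 for Slc17a1 with Slc17a3 and 0.60 for Slc17a3 with Akr1c14.

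Other carriers of urate and organic anions were described from a list of 15 genes, of which 14 were tested. In males 6 were lower and 2 higher in cKOm kidneys, where 4.90% of all tested genes were lower and 4.14% higher. In females 0 of 14 were called by edgeR, DESeq2 or limma-voom, and 2, Slc22a2 and Slc5a8, had an unadjusted edgeR p under 0.05. The list's median log2 fold change was -0.22 in males and -0.04 in females, against 0.01 and 0.00 over all tested genes. Slc22a7, a basolateral organic anion carrier, fell most: 107, 233 and 383 CPM in Ctrlm and 5.76, 12.5 and 22.002 CPM in cKOm kidneys (lowest, median and highest of 6), a log2 fold change of -4.10 (SE 0.30, edgeR adjusted p = 1.19e-09), with 196 to 359 CPM in Ctrlf and 188 to 356 CPM in cKOf kidneys. Slc22a12, URAT1, the main urate reuptake carrier of the luminal membrane, had 677 to 946 CPM in Ctrlm, 321 to 476 CPM in cKOm, 293 to 409 CPM in Ctrlf and 279.6 to 375 CPM in cKOf kidneys. Its log2 fold change was -1.03 in males (SE 0.11, edgeR adjusted p = 3.33e-07) and -0.04 in females (SE 0.11, edgeR adjusted p = 0.908). Slc22a7 and Slc22a12 differed between the sexes in this change (edgeR tests of the interaction, adjusted p = 3.83e-07 and 2.70e-04).

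The basolateral organic anion exchanger Slc22a6 fell in males by 0.65 on the log2 scale (SE 0.11, edgeR adjusted p = 4.18e-04), the lactate and urate-linked carrier Slc5a8 by 0.69 (SE 0.12, edgeR adjusted p = 6.20e-04) and the organic cation carrier Slc22a2 by 0.56 (SE 0.12, edgeR adjusted p = 0.00430). The urate exporting pump Abcc4 was higher in cKOm kidneys by 0.71 (SE 0.17, edgeR adjusted p = 0.00854), with 44.0 to 103 CPM in Ctrlm and 95.9 to 152 CPM in cKOm kidneys, which overlapped. Without the kidneys high in Alb 5 of the list were called in males, all lower: Slc22a12, Slc22a6, Slc22a7, Slc22a2 and Slc5a8. Slc22a6 and Slc22a7 are also among the proximal tubule markers above, so those counts are not independent.

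Genes that feed the urate pathway were taken from 3 lists. Of 19 genes of purine breakdown and salvage 16 were tested, and in males 1 was higher and 2 lower, where 4.14% of all tested genes were higher and 4.90% lower. Gda, guanine deaminase, had 9.39 to 13.1 CPM in Ctrlm and 24.1 to 35.6 CPM in cKOm kidneys, a log2 fold change of 1.36 (SE 0.22, edgeR adjusted p = 1.47e-04). The nucleotidases Nt5c2 and Nt5e fell by 0.36 (SE 0.07, edgeR adjusted p = 6.26e-04) and 0.55 (SE 0.14, edgeR adjusted p = 0.0142). Without the kidneys high in Alb, Nt5c2 alone was called. Of 13 genes of purine synthesis 2 were lower in males, against the same 4.90%, Paics by -0.30 (SE 0.06, edgeR adjusted p = 0.00375) and Gart by -0.33 (SE 0.09, edgeR adjusted p = 0.0298), and Paics alone was called without the kidneys high in Alb. None of the 5 genes that make or insert the molybdenum cofactor of Xdh was called by edgeR in either sex, while DESeq2 called Mocs2 in males and limma-voom 0, and 3 had an unadjusted edgeR p under 0.05 in males. In females 0 genes of these 3 lists were called by edgeR or DESeq2 and 1 by limma-voom, and 2, Gda and Mocs3, had an unadjusted edgeR p under 0.05. Of the other 4 Slc17 genes, which carry glutamate or nucleotides into vesicles, Slc17a7 and Slc17a9 were tested and not called, with group means up to 0.270 and 0.891 CPM, and Slc17a6 and Slc17a8 did not reach 1 CPM in any kidney.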

How the data were processed

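RNA of whole kidneys from 24 mice was sequenced, and the labels placed 6 mice in each of 4 groups by sex and genotype (Ctrlm, cKOm, Ctrlf, cKOf). Per the submitters' processing notes the reads were handled with cutadapt 1.8, STAR 2.5.3a and HTSeq 0.9.1 on GRCm38, from TruSeq stranded mRNA libraries. The authors deposited whole counts of reads per gene for each kidney, without normalization. A kidney's table listed 55335 genes, then 5 lines of reads given to no gene, which made up 34.0 to 41.5% of the lines' total and were left out of all totals. GENCODE M21 held 55154 of the genes and gave symbols, positions and exon lengths.

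Tests covered genes that reached 1 CPM in any kidney and were run in R 4.3.3 with edgeR 4.0.16 (TMM normalization, 1 model for the 4 groups, quasi-likelihood tests), on the whole table. Benjamini-Hochberg adjustment pooled the tests by genotype of both sexes, pooled both tests by sex, and treated the interaction alone, and an adjusted p under 0.05 was called. Levels are TMM-scaled CPM, and log2 CPM used a prior count of 2. Alternatives were RLE normalization, limma-voom (limma 3.58.1), DESeq2 1.42.0, other filters, other adjustments, a replicate block, a liver covariate and each kidney left out. The exclusion of the 5 kidneys with over 100 CPM of Alb was added after seeing the data. The procedure was tested on simulated counts. Python 3.11.15 served for tables and plots, with pandas 2.3.3, numpy 2.4.6, scipy 1.17.1 and matplotlib 3.10.9.

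The 9 members, the lists and the tests were chosen with earlier results of these data known. Named beside the members are Pex5, Alb, the 3 genes most like each member by Pearson r, and from each list up to 6 genes with the smallest male p among those called in males, in females or for the interaction. Other genes are said to have been chosen after their values were seen or stand for the neighbourhood of the Slc17 genes or for the liver. Kidneys fell into separate clusters of high and low Alb, so no pooled correlation with liver markers is given, although it had been planned. Replicates were separate mice by the study's account, and kidneys of a group differed by more than sampling noise in all 60 pairs.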

Additional observations from a re-analysis of the deposited data

Results flagged for a closer look

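Values of the 9 members and of 11 further carriers and purine genes were examined in 80 groups of 6 kidneys for a kidney far from the others (Dixon's test), of which chance alone marks about 1 in 20, and 7 were marked. In Ctrlf 1, Xdh had 199 CPM against 54.8 to 66.1 CPM in the other Ctrlf kidneys, and Gda had 31.2 CPM against 6.73 to 13.6 CPM. In cKOm 4, which was high in Alb, Uox had 6.01 CPM against 0 to 0.251 CPM and Slc17a2 had 1.17 CPM against 0.234 to 0.549 CPM in the other cKOm kidneys. In cKOf 5, Uox had 0.319 CPM against 0 to 0.0934 CPM, and the Alb level of that kidney, 60.2 CPM, was the highest among the 19 kidneys low in Alb. In Ctrlf 4, Slc17a4 had 1.81 CPM against 3.48 to 4.48 CPM. In cKOm 1, Gart had 30.8 CPM against 23.7 to 26.2 CPM.

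By the edgeR test of the interaction the change by genotype differed between the sexes in 2 of the 9 members, where 2.31% of all tested genes were called. It also did so in 5 of the 11 other genes, but these had been named for being called by genotype or for the interaction, so that this count is no result. The male minus female difference of log2 fold changes was -0.88 for Slc17a3, -0.45 for Slc17a1, -4.08 for Slc22a7, -0.98 for Slc22a12, -0.88 for Slc22a2, 0.96 for Abcc4 and -0.80 for Nt5e.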

How the results depend on the processing

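Over 1075 alternative fits of the members' log2 fold changes, 1020 kept direction and side of the threshold, and Slc17a1 and Slc17a3 did so in all fits by genotype in males and of the interaction. The cause of the changes below was not tested. Without the 5 kidneys high in Alb, fewer kidneys were compared, with 2 Ctrlm and 5 cKOm kidneys left. In these fits 593 genes were called in males (1456 with all), 83 in females (137 with all) and 1475 by sex in controls (2519 with all). In the same fits 4 members were called by sex in controls (7 with all), and 5 of the urate carriers (8 with all), 1 gene of purine breakdown (3 with all) and 1 of purine synthesis (2 with all) were called in males. There Slc17a2 was at 0.082 and Xdh at 0.064 in males, Slc17a2 at 0.54 for the interaction, and Uox, on counts mostly at or under the floor, at -0.27 by sex in controls and -0.52 in cKO mice. With the liver covariate, 878 genes were called in males and 1380 by sex in controls, 5 urate carriers and 0 genes of purine synthesis in males, and 1 member, Uox, in females. Slc17a4 was then at 0.051 and Uox at 1.78 for the interaction, and Uox at -1.17 by sex in cKO mice. By sex in controls Uox was then called in the opposite direction, at -2.96 (edgeR adjusted p = 0.0107) against 3.89 in the main fit. Outside the kidneys high in Alb, Uox counts were mostly at or under the floor, so neither Uox call with this covariate is a result. Xdh was the 1 member called in females with RLE normalization, DESeq2, every gene with a count, or at least 1 CPM in at least 6 kidneys. DESeq2 called 574 genes for the interaction (372 by edgeR), 5 genes of purine breakdown and 1 of the molybdenum cofactor in males, and adjustment within a comparison left 43 genes in females and gave 1 gene of the molybdenum cofactor in males. Alb alone was 12.3 times higher in the median of Ctrlm than of cKOm kidneys, the summed liver markers 4.27 times. Of the 27 genes most like a member, 5 were shared with Spearman's rho and 5 with deviations from the group means.

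With each kidney left out in turn, 2 to 3 members were called in males, 0 to 1 in females, 2 for the interaction, 6 to 7 by sex in controls and 3 by sex in cKO mice. Called genes of purine breakdown in males ran from 2 to 6, of purine synthesis from 1 to 2 and of the molybdenum cofactor from 0 to 1. Values that changed sign, none of them called with all kidneys, ran from -0.027 to 0.11 for Slc2a9 and from -0.041 to 0.023 for Abcg2 in females, from -0.28 to 0.10 for Slc17a4 and from -4.44 to 1.02 for Uox for the interaction, and from -0.11 to 0.016 for Slc17a3 and from -0.55 to 4.91 for Uox by sex in cKO mice. The labels number the kidneys of each group, but they are different mice, and same-numbered kidneys did not deviate together (r of -0.20 to 0.12, 1 of 24 closest to its own number). With the number as a replicate block, 1268 genes were called in males and 110 in females, and the members called were the same 2 in males and 0 in females. By sex in controls 6 members were called, since Uox was lost. At 3 counts the floor of 0.105 to 0.155 CPM limits Uox and male Slc17a2.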

Other observations

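Among control mice the carriers around the members also differed by sex, in both directions, in genes named here after their values had been seen. Males were higher in Slc5a8 by 1.24 on the log2 scale (SE 0.13, edgeR adjusted p = 3.21e-08), in Slc22a12 by 1.18 (SE 0.11, edgeR adjusted p = 6.08e-09) and in Slc22a6 by 1.03 (SE 0.11, edgeR adjusted p = 1.50e-07). Females were higher in Abcc4, with a male over female value of -1.62 (SE 0.17, edgeR adjusted p = 5.43e-08), in Slc22a13 at -1.03 (SE 0.12, edgeR adjusted p = 3.80e-07) and in Slc22a8 at -0.94 (SE 0.11, edgeR adjusted p = 3.45e-07). In each of these 6 genes, and in Slc22a2, the male and female controls did not overlap. The 6 were picked for their sex difference, so that this count is no result. Of the 14 tested carriers 4 were higher and 3 lower in control males, where 8.17% of all tested genes were higher and 7.48% lower. By sex in cKO mice 3 were higher and 5 lower in males, where 9.72% of all tested genes were called. Slc22a7, not among the 6, had the smallest p of these, with means of 13.2 CPM in cKOm and 259 CPM in cKOf kidneys. In cKO mice 5 of the 6 were also called by sex, in the same directions. The male over female values there were 0.85 for Slc5a8 (edgeR adjusted p = 1.47e-05), 0.46 for Slc22a6 (edgeR adjusted p = 0.00554), -0.66 for Abcc4 (edgeR adjusted p = 0.00745), -1.04 for Slc22a13 (edgeR adjusted p = 3.44e-07) and -0.75 for Slc22a8 (edgeR adjusted p = 1.34e-05), and 0.20 for Slc22a12, which was not called (edgeR adjusted p = 0.259).

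Of the 5 genes of the molybdenum cofactor, which Xdh needs, 3 were higher in Ctrlm than in Ctrlf kidneys, against 8.17% of all tested genes higher in control males. These were Gphn at 98.4 ± 4.78 and 76.6 ± 8.73 CPM, Mocs2 at 87.2 ± 12.4 and 66.4 ± 5.30 CPM, and Mocs1 at 50.3 ± 5.97 and 38.6 ± 8.20 CPM (mean ± SD, n = 6). Their log2 fold changes were 0.36 to 0.39. By sex in cKO mice edgeR, DESeq2 and limma-voom called 0 of the 5, and 2, Gphn and Mocs1, had an unadjusted edgeR p under 0.05. The edgeR test of the interaction called 0 of the 5, where 2.31% of all tested genes were called.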
